A study of Mus musculus with 20 samples.

Results

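Selenbp1 and Selenbp2, a pair of neighbouring mouse genes for selenium-binding proteins, were examined in the liver of mice on a low-fat or a high-fat diet. Their probe sets were those whose platform annotation gives exactly 1 gene symbol, either of these names. Of the 2 genes, out of 18193 named on the array, 1 had probe sets under this rule. The rule found 2 of 45101 probe sets, 1417580_s_at and 1450699_at, both annotated to Selenbp1, and 0 annotated to Selenbp2. Male C57BL/6J mice, an inbred strain, were bought at 3 weeks of age, kept for 1 week on the low-fat diet and then fed for 4 weeks. The low-fat group (10 mice) received 10% of its energy from fat and the high-fat group (10 mice) 45%. All were labelled as 8 weeks old and were killed after a fast of 16 h, and whole liver RNA of each mouse was hybridised to 1 Affymetrix array. High-fat groups that also received a maple syrup extract are not analysed here. In whole liver, a change in the number of cells of a type cannot be told apart from a change in RNA per cell.

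Selenbp1 is an abundant cytosolic protein of liver that binds selenium. It is no selenoprotein, because it holds no selenocysteine built in during translation. It acts as a methanethiol oxidase, which turns methanethiol, a sulfur compound made by gut bacteria and from methionine, into hydrogen sulfide, hydrogen peroxide and formaldehyde. Selenbp2 is a close copy of Selenbp1 in the mouse and was first described as a liver protein that binds acetaminophen.

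The identity of the probe sets limits what can be said of each gene. 1450699_at carries the accession NM_009150, which the RefSeq gene table of GRCm38.p6 pairs with Selenbp1. 1417580_s_at carries NM_019414, which the same table pairs with Selenbp2, although its annotated symbol and gene identifier are those of Selenbp1. Such a mismatch is rare: of 5884 probe sets with 1 symbol and an accession in that table, 16 (0.272%) carry an accession of another gene. The suffix of 1417580_s_at marks probes that match more than 1 transcript, which can be of different genes. Signal from Selenbp1 and Selenbp2 therefore cannot be told apart in 1417580_s_at, and 0 other probe sets carry a symbol or accession of either gene.

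The promoters show how alike the copies are. The genes lie on the same chromosome, with the protein-coding genes Cgn, Pogz and Psmb4 listed between them in that table. The 250 bases before each start are given 5′ to 3′ from RefSeq (GRCm38.p6), for Selenbp1 at chr3:94932833-94933082 and for Selenbp2 at chr3:94693323-94693572, both on the plus strand. Capitals mark bases that differ from, or have no partner in, the 300-base window of the other gene (250 bases before and 50 after the start).
Selenbp1: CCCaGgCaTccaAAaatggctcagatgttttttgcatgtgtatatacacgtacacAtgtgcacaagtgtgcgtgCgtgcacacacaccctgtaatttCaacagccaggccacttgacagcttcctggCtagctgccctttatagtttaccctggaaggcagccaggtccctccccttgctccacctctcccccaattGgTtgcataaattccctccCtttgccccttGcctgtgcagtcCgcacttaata
Selenbp2: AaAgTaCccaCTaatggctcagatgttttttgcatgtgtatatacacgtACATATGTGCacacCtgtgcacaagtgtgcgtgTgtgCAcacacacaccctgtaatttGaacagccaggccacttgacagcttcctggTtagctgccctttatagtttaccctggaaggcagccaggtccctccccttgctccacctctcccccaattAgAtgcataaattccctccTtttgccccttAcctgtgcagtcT
Over the 300 aligned columns where the windows overlapped, 272 were identical (90.7%). Another 16 held different bases, and 12 held a base of Selenbp2 with no partner in Selenbp1. The longest identical run was 69 bases, with 53 bases between its end and the Selenbp1 start and 43 between its end and that of Selenbp2. Of the 289 distinct 12-base words in the Selenbp1 window 155 also occurred in that of Selenbp2, the most among the windows of 27024 other genes, and the next highest number was 5.

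The shared stretch holds the letters TATAAA (on either strand), those of the TATA box, 1 time in each promoter, 113 bases before the Selenbp1 start and 103 before the Selenbp2 start. These letters occur in 13% of 27025 promoters of the same length. CCAAT occurred 2 times in Selenbp1, at 59 and 56 bases before the start, and 1 time in Selenbp2, at 49 bases (34.5% of promoters hold it). The site at 56 bases in Selenbp1 has no counterpart in Selenbp2, where a base differs. The letters TGACNNNGC (antioxidant response element core), CACGTG (E-box) and TTATGTAA (D-box) had 0 matches on either strand in both, and 10.1%, 6.05% and 0.862% of promoters hold them.

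Both probe sets scored higher on the high-fat diet. The values are the deposited probe set scores, which run like log2 intensities in level, but whose differences between arrays are compressed by an amount that varies between probe sets. A difference in score is therefore no fold change, and sizes are given as standardised differences: the high-fat mean minus the low-fat mean, divided by the SD within diets. The genes were chosen with this diet contrast already known, so the differences are a description and carry no test.

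For 1417580_s_at, the low-fat mice ran from 11.21490 (replicate 2) over a median of 11.23382 to 11.24229 (replicate 3). The high-fat mice ran from 11.24871 (replicate 10) over a median of 11.26231 to 11.27004 (replicate 2). The diets did not overlap: the lowest high-fat mouse lay 0.00643 above the highest low-fat mouse, and the high-fat mouse was higher in 100 of 100 pairs. Over all 45037 probe sets that are not controls, 0.0666% separated the diets in this way with the high-fat mice higher. The means were 11.23260 ± 0.00776 and 11.26077 ± 0.00688 (SD, n = 10 per diet). The difference of 0.0282 was 3.84 SD. Among low-fat mice replicate 2 lay lowest, and the difference without it was 4.34 SD.

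For 1450699_at, the low-fat mice ran from 11.00036 (replicate 2) over a median of 11.00154 to 11.00288 (replicate 9). The high-fat mice ran from 11.00226 (replicate 10) over a median of 11.00324 to 11.00452 (replicate 2). The diets overlapped through low-fat replicate 9, which lay above high-fat replicates 3, 7 and 10. The high-fat mouse was higher in 97 of 100 pairs. The means were 11.00151 ± 0.000721 and 11.00320 ± 0.000696 (SD, n = 10 per diet), a difference of 0.00169 or 2.38 SD. Without low-fat replicate 9 it was 2.87 SD.

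**Figure D1:**
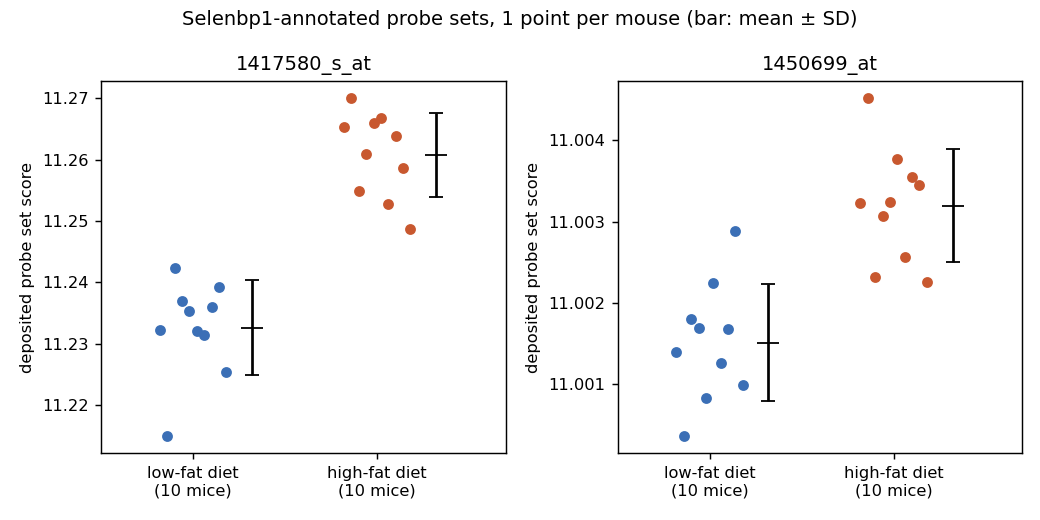
Deposited scores (vertical axes, with a separate scale for each probe set and not starting at 0) of 1417580_s_at and 1450699_at in each mouse by diet, with mean and SD beside the points. The diets are apart for 1417580_s_at, and for 1450699_at 1 low-fat mouse at 11.00288 lies among the high-fat mice.

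The probe sets differed in scale as well as in accession. The SD within diets of 1417580_s_at was 10.4 times, and its diet difference 16.7 times, that of 1450699_at. These ratios cannot be read as amounts of transcript, because the compression of each probe set is unknown. The mean scores lay above those of 98.1% and 97.8% of probe sets, and the SDs above those of 99.6% and 97.9%, against a median SD of 1.15e-05 over all. Spread was similar on both diets, the high-fat SD being 0.886 and 0.966 times the low-fat SD. The difference of 1450699_at, whose accession is that of Selenbp1, and of 1417580_s_at, whose accession is that of Selenbp2, had the same direction. Whether their sizes differ was not tested.

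Agreement between the probe sets across mice of 1 diet does not use the diet contrast and was tested. On the high-fat diet, Pearson's r was 0.89 (permutation p = 0.00061, adjusted p = 0.00244 over 4 tests) and Spearman's rho 0.85 (permutation p = 0.00295, adjusted p = 0.0059), n = 10 mice. Replicate 2 ranked highest and replicate 10 lowest by both probe sets. Without replicates 7 and 10, the mice farthest from the median of 1417580_s_at, r was 0.83.

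On the low-fat diet agreement was looser. Pearson's r was 0.70 (permutation p = 0.0261, adjusted p = 0.0314) and rho 0.70 (permutation p = 0.0314, adjusted p = 0.0314), n = 10 mice. It leaned on replicate 2, lowest by both probe sets: without it r was 0.51 (permutation p = 0.161). Without replicates 2 and 3, the mice farthest from the median of 1417580_s_at, r was 0.56 (permutation p = 0.148). Leaving out replicate 3 alone gave 0.72 (permutation p = 0.0297), replicate 10 alone 0.68 (permutation p = 0.0526) and replicate 5 alone 0.80 (permutation p = 0.0122). Replicate 6 ranked 9 of 10 by 1450699_at and 4 by 1417580_s_at, and replicate 5 ranked 2 and 6. On each diet 8 of 10 mice lay on the same side of the median by both probe sets. Whether r differed between the diets was not tested.

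**Figure D2:**
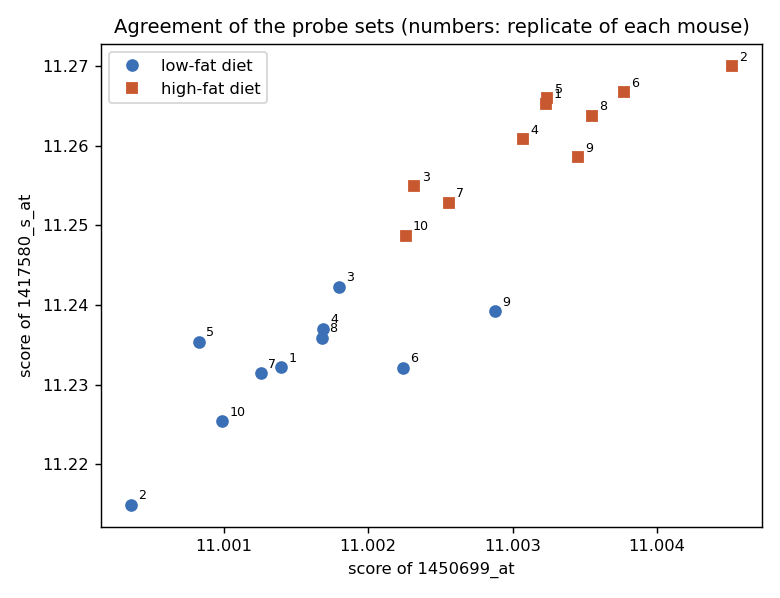
Score of 1417580_s_at (vertical) against that of 1450699_at (horizontal), 1 point per mouse, with its replicate number. Low-fat replicate 2 is lowest and high-fat replicate 2 highest on both axes, r within diets is 0.70 (low-fat) and 0.89 (high-fat), and low-fat replicates 6 and 9 lie to the right of the other low-fat mice.

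Both values also depended on which scaling of the arrays was used. After quantile normalisation r was 0.25 on the low-fat and 0.46 on the high-fat diet (permutation p = 0.538 and 0.198). After centring each array on its median r was 0.72 and 0.88 (permutation p = 0.0217 and 0.00062). The standardised diet differences after quantile normalisation were 3.89 for 1417580_s_at and 1.81 for 1450699_at. Array medians correlated with 1450699_at at 0.50 on the low-fat and -0.30 on the high-fat diet, and with 1417580_s_at at -0.01 and -0.27.

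The agreement was set beside that of other genes with 2 named probe sets, as a description. Selenbp1 stands here for the 2 probe sets annotated to it, although signal of Selenbp1 and Selenbp2 cannot be told apart in 1417580_s_at. Over 4694 such genes the median r was 0.22 on the low-fat and 0.25 on the high-fat diet, and 85.9% and 94.5% of them had a lower r than Selenbp1. Of these, 258 had both probe sets above the 90th percentile of mean score, as Selenbp1 does. Their median r was 0.74 and 0.79, with 45.7% and 68.6% below Selenbp1, and 66 were at least as high on both diets. Selenbp1 lay near the middle of this set on the low-fat diet and somewhat above it on the high-fat diet.

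**Figure D3:**
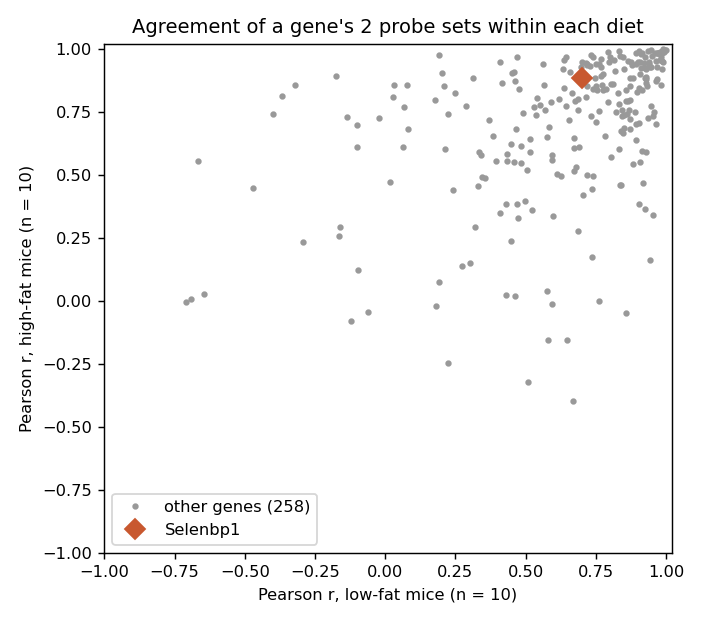
Pearson r between the 2 probe sets annotated to a gene over low-fat mice (horizontal) and over high-fat mice (vertical). Shown are 258 other genes of high score (grey) and Selenbp1 (orange), whose probe set 1417580_s_at may also hold signal of Selenbp2. Selenbp1, at 0.70 and 0.89, lies at the edge of the dense upper right corner, and 66 genes are at least as high on both axes.

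Genes whose scores followed each probe set across mice were sought among 16330 named genes over all 20 mice, after each diet mean had been subtracted. Across those mice the probe sets followed each other with r = 0.79, and 7 genes followed 1417580_s_at more closely than that and 33 genes 1450699_at. These values were picked from many and carry no p. All were taken over the same mice and arrays.

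The genes most alike to 1417580_s_at were Stab2, a scavenger receptor of sinusoidal endothelial cells (r = 0.90), and C8g, a chain of the complement membrane attack complex (0.85). They were followed by the elastase gene Cela1 (0.84), the ceramide synthase gene Cers2 (0.83) and the glypican gene Gpc4 (0.82). Stab2 stood at 0.95 within the low-fat and 0.84 within the high-fat mice. Of these 5, Cela1 rose on the high-fat diet (standardised difference 1.80, limma adjusted p = 0.0265), a call lost with the poly-A spike-in covariate (adjusted p = 0.0879). The other members of the list had standardised differences from -0.64 (Cers2) to 0.64 (Stab2) and did not pass. The most opposed were Fst, which encodes the activin antagonist follistatin (-0.76), the forkhead factor gene Foxl1 (-0.75) and Hint1 (-0.73).

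The genes most alike to 1450699_at were Fah, the last enzyme of tyrosine breakdown (r = 0.87), the peptidase gene Dpp4 (0.87), the sugar transporter gene Slc50a1 (0.86), Parp12 (0.86) and the sulfotransferase gene Sult1b1 (0.85). The most opposed were Ehhadh, a peroxisomal enzyme of fatty acid oxidation (-0.83), the ribosomal protein gene Rps28 (-0.82) and Hint1 (-0.81). Of the 5 genes most alike to each probe set 0 were shared, and of the 3 most opposed 1 was, Hint1. Fah had an r of 0.64 with 1417580_s_at, and Stab2 one of 0.74 with 1450699_at. These were the highest such values among the 5 most alike genes, and the lowest were 0.56 (Sult1b1) and 0.50 (Cela1). Of the opposed genes that were not shared, Ehhadh and Rps28 stood at -0.47 and -0.69 with 1417580_s_at. Fst and Foxl1 stood at -0.48 and -0.76 with 1450699_at. Fah (standardised difference 0.28), Ehhadh (0.31) and Hint1 (-0.07) did not pass between the diets (limma adjusted p = 0.818, 0.784 and 0.961).

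**Figure D4:**
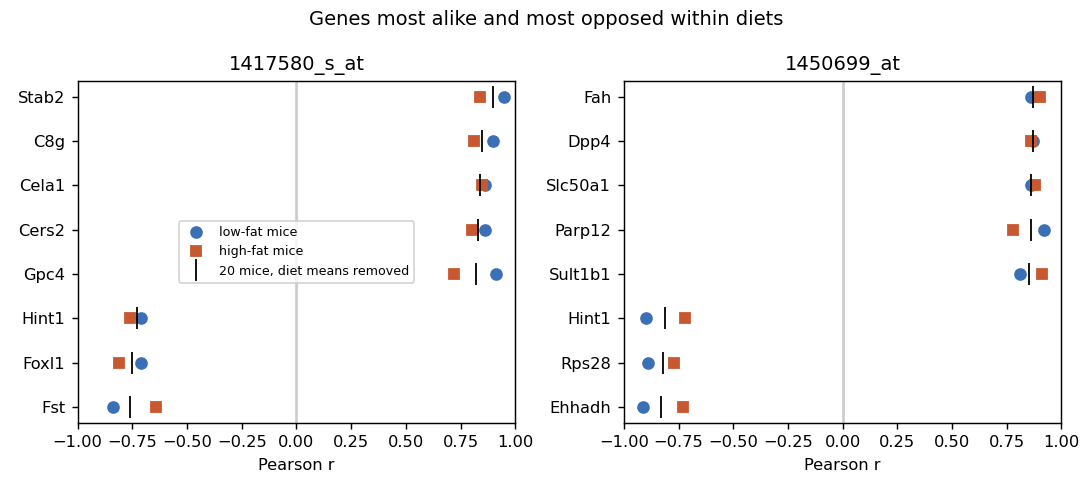
Pearson r (horizontal) of the 5 most alike and 3 most opposed genes with 1417580_s_at (left) and 1450699_at (right), within low-fat mice, within high-fat mice and over 20 mice without diet means. The most alike genes lie at 0.72 or above in either diet, and Hint1 is the gene that both panels hold.

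The genes between Selenbp2 and Selenbp1 gave no call between the diets. Psmb4, a proteasome subunit, stood at 1.52 SD (limma adjusted p = 0.0616), Pogz, a zinc finger protein, at -0.90 (adjusted p = 0.312) and Cgn, the tight junction protein cingulin, at -0.71 (adjusted p = 0.45). Across mice of 1 diet, Psmb4 correlated with 1417580_s_at at -0.40 (low-fat) and -0.41 (high-fat). These values of Psmb4 are of its probe set of highest mean. Its other probe set correlated with that one at 0.21 (low-fat) and 0.60 (high-fat), and the diet difference of the other is not given here.

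Genes of the biochemistry around Selenbp1 were counted in 4 lists, each gene by its probe set of highest mean. In limma over all 18193 genes, 3.49% passed an adjusted p of 0.05 (1.71% with the high-fat mice higher, 1.78% with them lower). An unadjusted p was under 0.05 for 17.0% of all genes. The median standardised difference was 0.04. Scaling moved that balance. After quantile normalisation 141 genes were higher and 1331 lower, and after centring each array on its median 216 were higher and 14625 lower, against 312 and 323 as deposited. The median standardised difference over all genes then moved to -0.39 and -1.24.

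Among genes for selenoproteins, which carry selenocysteine, 0 of 23 measured rose and 1 fell, with a list median of -0.11 (11 at an unadjusted p under 0.05). Gpx4, which reduces lipid hydroperoxides in membranes, fell (-1.92, 95% interval -2.98 to -0.83, limma adjusted p = 0.019), and its score was higher in the high-fat mouse in 8 of 100 pairs. Another probe set of Gpx4 stood at -0.22, and the mean of both missed the threshold (adjusted p = 0.0799). After quantile normalisation Gpx4 had the same value on all arrays and gave no test. Gpx1, the cytosolic glutathione peroxidase, stood at 1.41 (0.40 to 2.38, adjusted p = 0.266). After centring on array medians it stood at -1.24, as did the median over all genes. Its SDs (1.31e-06 low-fat, 1.36e-06 high-fat) are far below the spread of array medians (6.56836 to 6.56856). The centred value therefore mostly reflects those medians and cannot show a direction for Gpx1. Selenop, the secreted selenium carrier made by liver, stood at -1.19 (-2.14 to -0.22, adjusted p = 0.624). Selenok, an endoplasmic reticulum membrane protein named here after its values were seen, missed the threshold at 1.60 (0.56 to 2.60, adjusted p = 0.0504), and its other probe set stood at 1.75. The direction of the call in this list turned with the choice of probe sets. With the mean of each gene's probe sets Selenok passed (1.71, adjusted p = 0.033) and Gpx4 did not, and without probe sets of cross-hybridising suffix, which leaves out Gpx4, Selenok again passed alone (adjusted p = 0.0339). After quantile normalisation Selenok stood at -0.19 (adjusted p = 0.811). Txnrd2, also named after its values were seen, stood at -0.94 (limma adjusted p = 0.284). Its 3 other probe sets, which were not counted, stood at -2.45, -1.38 and -0.94. The count of selenoprotein genes called was 2 without low-fat replicate 5 or high-fat replicate 2, 8 or 9, and 3 without high-fat replicate 7.

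Of 14 measured genes of selenium uptake and selenocysteine synthesis 1 rose and 1 fell (list median -0.10, 3 at an unadjusted p under 0.05). Secisbp2, which binds the element that recodes a stop codon to selenocysteine, rose (2.03, 0.92 to 3.11, adjusted p = 0.013), and was higher in 99 of 100 pairs. Scly, which frees selenium from selenocysteine, fell (-1.83, -2.87 to -0.75, adjusted p = 0.0246). With the mean of each gene's probe sets neither passed (adjusted p = 0.0551 and 0.109), and after quantile normalisation neither did (0.682 and 0.167), with directions kept. After centring on array medians Secisbp2 stood at 0.41 and lost its call (adjusted p = 0.388). The SDs of Secisbp2 (5.11e-05 low-fat, 4.91e-05 high-fat) are small beside the range of array medians (6.56836 to 6.56856). Its centred value therefore partly reflects those medians and cannot settle the call. Scly also missed the threshold with the poly-A spike-in score as a covariate (0.0536). Sepsecs, which makes the selenocysteine carried by its transfer RNA, stood at 0.39 and Lrp8, a receptor for Selenop, at -0.71.

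Of 18 measured genes listed around methanethiol and hydrogen sulfide 0 passed in limma (1 at an unadjusted p under 0.05, and 0 with an unmoderated model). Values ran from -1.07 to 0.80, with a list median of -0.01. The list also holds genes of neighbouring sulfur and methyl metabolism, such as Gnmt, Bhmt, Csad and Suox. Its count therefore does not stand for reactions of methanethiol and hydrogen sulfide alone. Cbs and Cth, both sources of hydrogen sulfide, stood at -0.88 (95% interval -1.79 to 0.06) and -0.34 (-1.22 to 0.54). Of 16 measured genes listed around removal of hydrogen peroxide and formaldehyde, the other products of methanethiol oxidation, 0 passed in limma (6 at an unadjusted p under 0.05, and 0 with an unmoderated model). The list median was -0.22, and the list also holds genes of glutathione synthesis and recycling, such as Gclc, Gss and Gsr. Catalase (Cat) stood at -1.12 (-2.06 to -0.16, adjusted p = 0.185) and Adh5, which oxidises formaldehyde bound to glutathione, at -0.03 (-0.90 to 0.85). Aldh2, named here after its values were seen, stood at -1.45 (limma adjusted p = 0.107). Its 4 other probe sets, which were not counted, stood at -0.69, -0.46, -0.17 and -2.16. In the peroxide and formaldehyde list 1 gene passed as higher without high-fat replicate 2 or 9, and 1 as lower without replicate 3. Nearest the threshold were Gsr (1.49, limma adjusted p = 0.0652) and Gclc (-1.48, 0.0671), also named after their values were seen. Their other probe sets stood at 0.89 and -1.29. After quantile normalisation Gsr stood at -1.47 (limma adjusted p = 0.0439) and Gclc at -2.05 (0.00925).

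**Figure D5:**
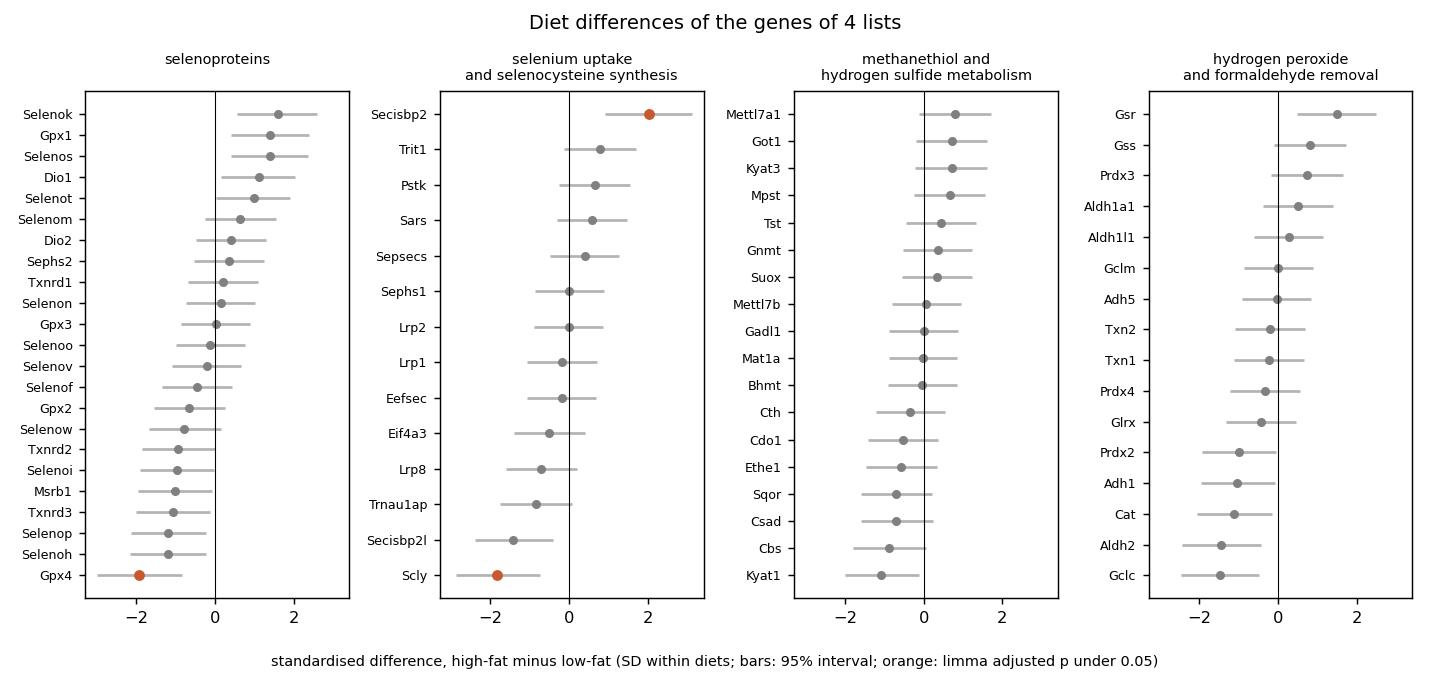
Standardised differences (horizontal, high-fat minus low-fat in SD units, with 95% intervals) of the measured genes of the 4 lists. Gpx4, Scly and Secisbp2 (orange) passed limma's adjusted p of 0.05, and the other points lie between -1.48 and 1.60.

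Array medians ran from 6.56836 to 6.56855 on the low-fat and from 6.56840 to 6.56856 on the high-fat diet, where they were higher by 1.29 SD. No identical columns were found (0 pairs of arrays). Poly-A spike-ins are RNAs added before labelling as controls. Their mean over 24 probe sets, in SD units, ran from 0.15 to 0.98 on the low-fat and from -2.44 to 1.16 on the high-fat diet. With that score as a covariate the standardised differences were 3.77 for 1417580_s_at and 2.42 for 1450699_at. Of 7 measured hepatocyte markers 0 passed in limma, and 1, Ttr, passed with an unmoderated model. Alb (14.82), Apoa1 (14.58) and Ttr (14.53) lay near the top of the score range, while Ass1 lay at 7.22. Ttr, the thyroid hormone carrier transthyretin, stood at -3.12 SD, a standardised difference of a size between those of the Selenbp1 probe sets and opposite in direction. The high-fat mouse was higher in 0 of 100 pairs, and 0.113% of probe sets separated the diets with the high-fat mice lower. Its adjusted p was 0.224 in limma, which draws its small SD (0.0386 times the median over genes) toward that of other genes, 0.000942 with the unmoderated model and 0.000941 with the mean of its probe sets. The 3 other probe sets of Ttr stood at -1.96, -2.46 and -2.51. Apoa1 stood at 1.35 (adjusted p = 0.719, and 0.112 unmoderated). Of 42 measured markers of 8 other cell types or tissues 2 passed in limma, Mylpf of muscle (-1.99, limma adjusted p = 0.0209, and 0.649 after quantile normalisation) and Cela1 of pancreatic acinar cells (1.80). Mylpf had a low mean score of 6.55, against a median of 6.57 over probe sets that are not controls. The other muscle markers Acta1, Tnnc2, Ckm and Myh4 stood at 0.80, 0.00, -0.08 and -0.57. The other acinar markers Cela2a, Cpa1 and Ctrb1 stood at 0.47, 0.42 and -0.11, and the mean of all 4 in SD units ran from -0.92 to 0.57 on the low-fat and from -0.59 to 0.90 on the high-fat diet. It correlated with 1417580_s_at at 0.09 and 0.39 within the diets, and the endothelial mean, which includes Stab2, at 0.76 and 0.03. The hepatocyte mean correlated with it at -0.59 (low-fat) and -0.25 (high-fat), and the cholangiocyte mean at 0.58 and 0.21. The means of the 5 other lists ranged from -0.32 to 0.30 on the low-fat and from -0.30 to 0.51 on the high-fat diet. These correlations are over 10 mice per diet and carry no test. The part of these cell types in the Selenbp1 scores was not tested.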

How the data were processed

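The authors deposited 1 score per probe set and array, per the labels from biotin-labelled RNA made with a 3′-end kit. No software for summarising or normalising the probes is named in the sources used here. Units were taken from the values. The file held 0 columns of other samples. The annotation named 34945 probe sets by 1 symbol, 932 by several and 9160 by none, and 64 were controls. No filter on low values was used.

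Members, lists and tests were chosen with earlier results of these data known. Diets were compared over all 18193 genes with limma 3.58.1 in R 4.3.3 (two-sided, no covariate, Benjamini-Hochberg over all genes, threshold 0.05); its prior had 0.724 degrees of freedom. Intervals of standardised differences are 95% intervals from the noncentral t distribution. Agreement within diets used two-sided permutation tests with 100000 resamples (Python 3.11.15, scipy 1.17.1), adjusted over 4 tests. On simulated data with 18193 genes, limma recovered 0% of genes shifted by 1 SD, 47% by 2 SD and 96% by 3 SD, with 2 false calls. Each simulated gene varied independently with normal noise, whereas on the arrays scores of different genes followed each other. The simulation therefore gives no error rate for these data.

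Named genes were the members and the 5 most alike and 3 most opposed genes of each probe set (unnamed gene models left out). Of each list, up to 4 members past the threshold and up to 2 others were named. Further list genes are marked where they were named after their values were seen. The genes between Selenbp2 and Selenbp1 were added by position after the data were seen. Alternatives were quantile normalisation, array centring, a filter, mean of probe sets, omission of cross-hybridising suffixes, variance trend, array weights, covariates, the replicate block and leaving out each array. The number of arrays limits precision.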

Additional observations from a re-analysis of the deposited data

Results flagged for a closer look

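The distance of the highest and lowest mouse from its neighbour was examined in 40 groups of 10, for both Selenbp1 probe sets, the called list genes and the genes most alike or opposed. In 1 group a mouse lay far from the others, and chance gives about 1 in 20. For Gpx4, high-fat replicate 9 was low (gap over range 0.541, critical value 0.466), and without it the standardised difference was -2.01 (limma adjusted p = 0.0214).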

How the results depend on the processing

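The diet differences of 1417580_s_at and 1450699_at kept their direction and moved by less than 1 SD under every alternative run. They stood at 3.44 and 2.29 with the replicate block, and leaving out 1 array gave 3.71 to 4.34 and 2.27 to 2.87. The genes were chosen with this contrast known, so these values are a description and no added evidence for it. As the diets did not overlap for 1417580_s_at, leaving out 1 array could not turn its direction. Same-numbered mice had an r over 0.1 in 2 of 10 pairs (range -0.15 to 0.23). Of the low-fat mice, 2 were most like the high-fat mouse of their number. These few values cannot exclude a link between mice of the same number. With the replicate block 421 genes passed in place of 635. Of the list genes called, Scly (adjusted p = 0.0886) and Secisbp2 (0.0676) missed the threshold there, which left 0 of the selenium uptake list.

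Agreement fell to 0.25 (low-fat) and 0.46 (high-fat) after quantile normalisation, and to 0.56 on the low-fat diet without the 2 farthest mice. With arrays centred on their median it was 0.72 and 0.88. Without 1 array r ran from 0.51 to 0.80 (low-fat) and from 0.86 to 0.91 (high-fat). Over 20 mice with diet means removed, an alternative chosen after seeing the data like the unmoderated model, r was 0.79.

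Quantile normalisation called 1472 genes (860 became constant across arrays and dropped out), 3 of 20 selenoprotein genes, 0 of 14 of selenium uptake, and 2 of 10 of peroxide and formaldehyde removal. Median centring, which shifts most genes down, called 14841 genes, and 19, 10, 6 and 9 members of the lists in the order of the report. The poly-A spike-in covariate called 411 genes and 1 of selenium uptake, and the mean of probe sets 0 of that list. The filter to genes above the median level called 2 selenoprotein genes and 2 of peroxide and formaldehyde removal, and the variance trend 2 selenoprotein genes. Leaving out 1 array gave 498 to 720 genes, and 1 to 3 selenoprotein, 2 to 3 selenium uptake and 0 to 1 peroxide and formaldehyde genes, with 0 methanethiol and sulfide genes in each fit. Beyond what each alternative changes by construction, the cause was not tested.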
